A study of Mus musculus with 15 samples.

Results

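Eif2ak3, Hspa5, Pdia6 and Edem1 are genes of the unfolded protein response, and every ATAC-seq peak that the authors annotated to them was taken here, 9 regions in all. ATAC-seq measures how readily the Tn5 transposase inserts into chromatin, so a peak is a stretch of open DNA. All 9 regions were listed in the comparison of genotypes after surgery (of 13111 peaks) and in the comparison of times in βKO islets (of 12767). The comparison of genotypes before surgery (7826 peaks) and that of times in control islets (8070) each listed 6 of them. The genes were proposed because peaks of theirs had passed the authors' threshold in βKO islets after surgery, so values from that group describe them and test nothing.

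The samples were pancreatic islets of 15 male mice aged 3 months. All mice were Arid1aFl/Fl (floxed Arid1a) and carried MIP-rtTA, an insulin-promoter transgene encoding an activator that needs doxycycline. TRE-Cre was present in βKO mice alone and puts Cre in cells that use the insulin promoter. Controls had no Cre, and both genotypes shared the floxed alleles and the activator. Doxycycline was given at 1 g/L in drinking water for 2 weeks, per the labels' protocols. Islets came from 4 control and 3 βKO mice at baseline, and from 4 control and 4 βKO mice 6 days after partial pancreatectomy (PPx, removal of part of the pancreas), which was done 1 week after doxycycline ended. Islets also hold α, δ and other cells in which Cre is not made, so a group's value mixes deleted and intact cells, and a change in the number of cells of a type cannot be told apart from a change within cells.

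The unfolded protein response adjusts the endoplasmic reticulum (ER) to its load of unfolded protein. The sensors PERK (encoded by Eif2ak3), IRE1 and ATF6 are held inactive by the chaperone BiP (Hspa5), and unfolded protein draws BiP away. Active PERK slows translation by phosphorylating eIF2α, while ATF6 and the XBP1 factor made through IRE1 raise the transcription of chaperones, disulfide isomerases such as P5 (Pdia6) and factors of ER-associated degradation such as EDEM1. β cells make large amounts of proinsulin and lean on this response; loss of PERK causes early-onset diabetes in mice and in people. ARID1A, the protein of the deleted gene, belongs to SWI/SNF, a complex that moves nucleosomes.

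The promoters of the 4 genes carry the elements through which ATF6 and XBP1 are known to act to different degrees, and they are shown because the peaks measured here span them. Each sequence below runs from 250 to 41 bases before the start site, is taken from RefSeq (GRCm38.p6, the build of the deposited peaks), lies on the forward strand, and falls inside the promoter peak of all 4 tables. Capitals mark exact matches to the consensus of the ER stress response element, ERSE.
Eif2ak3 (chr6:70844265-70844474): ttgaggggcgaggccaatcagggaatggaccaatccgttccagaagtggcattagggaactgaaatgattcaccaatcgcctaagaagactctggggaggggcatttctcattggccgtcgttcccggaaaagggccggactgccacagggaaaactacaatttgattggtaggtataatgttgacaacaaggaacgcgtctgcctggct
Hspa5 (chr2:34771840-34772049): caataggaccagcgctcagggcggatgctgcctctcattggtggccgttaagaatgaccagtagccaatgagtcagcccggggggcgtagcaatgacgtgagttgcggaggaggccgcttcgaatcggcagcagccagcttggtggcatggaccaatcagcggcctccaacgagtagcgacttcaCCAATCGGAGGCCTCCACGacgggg
Pdia6 (chr12:17266339-17266548): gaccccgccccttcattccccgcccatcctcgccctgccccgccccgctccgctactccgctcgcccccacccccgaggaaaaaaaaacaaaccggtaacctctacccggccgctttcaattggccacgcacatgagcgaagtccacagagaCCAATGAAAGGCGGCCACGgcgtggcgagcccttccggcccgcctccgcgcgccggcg
Edem1 (chr6:108828391-108828600): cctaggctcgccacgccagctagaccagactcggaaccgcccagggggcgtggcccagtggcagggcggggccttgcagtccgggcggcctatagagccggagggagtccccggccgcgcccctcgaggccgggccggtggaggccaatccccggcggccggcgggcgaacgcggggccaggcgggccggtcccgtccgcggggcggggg

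The ERSE was searched as its consensus letters (CCAAT, 9 bases of any kind, then CCACG) on both strands of the RefSeq windows that run from 250 bases before to 50 after a start site. It occurred once in Hspa5, from 65 to 47 bases before the start, and once in Pdia6, from 98 to 80 bases before the start, and these letters were not found in the Eif2ak3 and Edem1 windows. Of 32841 mouse windows, 39 (0.119%) held these letters. Inexact copies were not counted, so an element that differs from the consensus would be missed. The CCAAT box alone, which NF-Y binds, occurred 6 times in the Eif2ak3 window, 4 times in Hspa5, 2 times in Pdia6 and 1 time in Edem1, and 37.4% of all windows held at least 1. The CCACG end was found 4 times in Pdia6, 2 times in Edem1, 1 time in Hspa5 and not in Eif2ak3, against 32.8% of all windows with at least 1. Both counts include those inside an ERSE. The second ERSE form (ATTGG, any base, CCACG), the unfolded protein response element core (TGACGTGG) and the C/EBP-ATF element (TGATGNAAT) were in none of the 4 windows and in 0.0365%, 0.676% and 0.965% of all windows. In the genotype comparison after PPx, the ERSE of Pdia6 lay 15 bp before the centre of its peak and that of Hspa5 lay 159 bp after the centre of its own.

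The values below are the authors' group values of log2 concentration, the log2 of the normalised reads in a peak averaged over the libraries of a group, and all peaks are 601 bp long. No values for single libraries were analysed here. The spread between mice is known through the authors' p-values alone, and whether single mice of the groups overlap cannot be seen. From each deposited change and p-value a standard error (SE) was derived, which reached from 0.30 to 0.68 over the members. Peaks at an FDR under 0.05 in the authors' deposited tables are called opened or closed. Changes are positive where βKO exceeds control or after exceeds before.

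Most peaks of the genome moved together in βKO islets after PPx, so each member is given both as deposited and relative to its table. The median change over all peaks was 0.61 between genotypes after PPx, 0.83 over time in βKO islets, 0.16 over time in control islets and 0.00 between genotypes before PPx. At promoter peaks, here those within 1 kb of a start, these medians were 0.72, 0.86, 0.15 and 0.04. The 2 pre-PPx groups read higher in the genotype table than in the time tables (median offsets of 0.23 in βKO and 0.18 in control islets), so levels are compared within a table. Of the β cell markers, 4 of 8 had a listed peak after PPx (Ins1, Mafa, Nkx6-1 and Slc30a8, but none at Ins2, Pdx1, Slc2a2 or Iapp). The α, δ and PP cell list had a peak at 4 of 6 genes after PPx, with a summed linear level of 64.8 in control and 98.5 in βKO islets. Acinar markers had none of 6 in any table, and the duct, endothelial, stromal and leukocyte lists had a peak at 1 of 4, 1 of 3, 1 of 3 and 2 of 3 genes after PPx, with summed linear levels of 15.8, 32.7, 25.6 and 17.9 in control and 19.0, 33.6, 36.2 and 27.2 in βKO islets. The β cell list summed to 99.7 and 176 there. These sums make no allowance for the median change of 0.61 or for the number of peaks. There were 9 peaks at β cell genes and 5 at genes of α, δ or PP cells. Both sets had a median change of 0.09 relative to the median peak. It was -0.345 for duct, -0.40 for endothelial, -0.14 for stromal and 0.065 for leukocyte peaks. In the other comparisons the β cell set and the α, δ and PP cell set differed. Their medians were 0.23 and -0.11 over time in βKO islets, and 0.11 and -0.01 over time in control islets. Between genotypes before PPx they were -0.24 and 0.06. The part of cell makeup in the results below was not tested. At the targeted gene, a peak in exon 9 of Arid1a was higher in βKO islets at both times. It read 1.21 in control against 5.49 in βKO islets before PPx, and 0.40 and 4.04 after, in the authors' group values.

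Before PPx, the 95% interval of the genotype change crossed 0 at all 6 listed regions. The promoter of Hspa5, the gene for BiP, read 4.93 in both genotypes (about 30.5 normalised reads), a change of 0.00 with a 95% interval from -0.70 to 0.70. At Pdia6 the promoter read 4.40 in control against 4.79 in βKO islets, a change of 0.39 ± 0.37 (SE) at p = 0.297 in the authors' deposited table. The Edem1 promoter read 5.45 and 5.68, and the Eif2ak3 promoter 6.71 and 6.93, in control and βKO islets. Both non-promoter regions of Eif2ak3 pointed the other way, with 4.17 in control and 3.92 in βKO islets at the upstream region and 3.52 and 3.36 in intron 2. None of the 6 was called, and the authors' deposited table opened 0.0128% of all peaks here, the single Arid1a peak. The upper limits of the intervals were 1.12 at Pdia6, 0.83 at Edem1 and 0.83 at the Eif2ak3 promoter, and 0.70 at Hspa5, 0.57 at the Eif2ak3 upstream region and 0.86 in its intron 2. As deposited, the change seen after PPx lay within the interval at Pdia6 and the Eif2ak3 promoter and above it at the other 4 regions. This makes no allowance for that change's own error or for the higher median of its table. Relative to the medians of 0.61 after and 0.00 before PPx, it lay above the interval at the Eif2ak3 upstream region alone (0.68). The values after PPx chose the members, so nothing is read from either count.

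**Figure D1:**
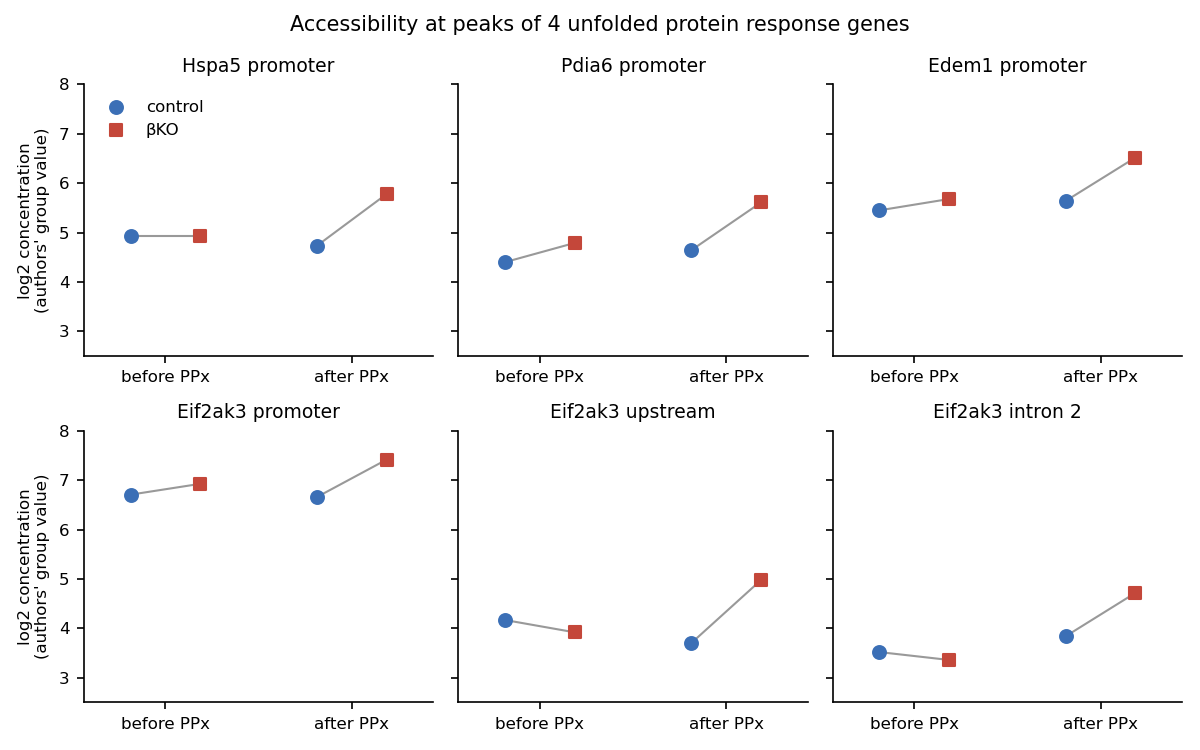
Authors' group values of log2 concentration (y axis) in control (circles) and βKO islets (squares) before and after PPx, from the genotype tables, at 6 regions of the 4 genes; a line joins the groups of 1 table, and no spread over mice is shown. The Hspa5 promoter reads 4.93 in both genotypes before PPx, and 4.73 in control against 5.78 in βKO islets after it.

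After PPx, 8 of 9 regions read higher in βKO than in control islets, as did 90.3% of all peaks, and 3 were called opened. The inner Eif2ak3 and upstream Pdia6 regions had peak calls in βKO libraries alone, so their direction may follow from their being listed. The same may hold for an unknown part of all peaks. The table as a whole opened 9.88% of its peaks, and 14.9% of its promoter peaks, and closed 0.0839%; nothing is read from the members' count, since this contrast chose them. The called regions were the upstream region of Eif2ak3, the Hspa5 promoter and the Pdia6 promoter. At an unadjusted p under 0.05, 6 of 9 regions passed, as did 33.6% of all peaks, per the authors' deposited table. Pdia6 lay just inside the threshold and Edem1 just outside, with an FDR of 0.0469 and 0.0532 in the authors' deposited table.

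Among the promoters the chaperone gene Hspa5 differed most. Its peak at chr2:34771575-34772175, which spans the start of the gene, stood at 4.73 in control and 5.78 in βKO islets, or 26.5 and 55.0 normalised reads. That is a 2.07-fold difference, a log2 change of 1.05 ± 0.36 (SE; authors' deposited table, FDR 0.0396). Calls as a peak came from 2 of 4 control libraries and all 4 βKO libraries, whereas before PPx all 4 control and all 3 βKO libraries had it. Relative to the median peak the change was 0.44, and relative to the median promoter 0.33, which is less than 1 SE.

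The disulfide isomerase gene Pdia6 and the degradation factor gene Edem1 followed. The Pdia6 promoter (chr12:17266215-17266815) read 4.64 in control against 5.61 in βKO islets, a change of 0.97 ± 0.35 (SE) in the authors' deposited table and 0.36 above the median. It was called in 4 of 4 libraries of both genotypes. The Edem1 promoter (chr6:108828213-108828813) read 5.64 and 6.52, a change of 0.88 ± 0.34 (SE) in the authors' deposited table and 0.27 above the median, again with 4 of 4 libraries in each genotype. This peak also overlaps Gm35417, a predicted RefSeq gene with a start site 0.2 kb from the peak centre, so its signal cannot be given to Edem1 alone.

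The promoter of the sensor gene Eif2ak3 had the highest level of all members and the smallest relative change of the 4 promoters. At chr6:70844007-70844607 it read 6.66 in control against 7.42 in βKO islets (101 and 171 normalised reads), higher than 99.8% of promoter peaks in the table. The change of 0.76 ± 0.33 (SE; authors' deposited table, FDR 0.0749) stood 0.15 above the median peak and 0.04 above the median promoter. All 4 libraries of both genotypes had called it.

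Away from the promoter, Eif2ak3 had 3 further regions. The upstream region, chr6:70824360-70824960, lies 19.9 kb before the Eif2ak3 start in sequence with no RefSeq gene; the nearest RefSeq start, 9.9 kb away, is that of the predicted gene Gm30331. Here control islets read 3.70 and βKO islets 4.98 (13.0 and 31.6 normalised reads). The change of 1.29 ± 0.36 (SE; authors' deposited table, FDR 0.0265) stood 0.68 above the median, and exceeded that of 97.8% of non-promoter peaks. Peak calls came from 2 of 4 control libraries and all 4 βKO libraries.

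The region in intron 2 (chr6:70872077-70872677), 27.9 kb after the start, read 3.84 in control against 4.72 in βKO islets, with calls in 1 of 4 and 4 of 4 libraries. Its change was 0.88 ± 0.37 (SE; authors' deposited table, FDR 0.0665). A weaker region within the gene, 36.6 kb after the start (chr6:70880831-70881431, which the authors' annotation places 2-3kb from a start site), read 2.21 and 3.14, with peak calls in no control library and in 2 of 4 from βKO mice. The map of Eif2ak3 shows βKO above control at the promoter in both panels. At the upstream and intron 2 regions βKO lay below control before PPx and above it after. The differences before PPx, -0.26 ± 0.42 and -0.17 ± 0.53 (SE), were each less than 1 SE, so a turn in order is not resolved.

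**Figure D2:**
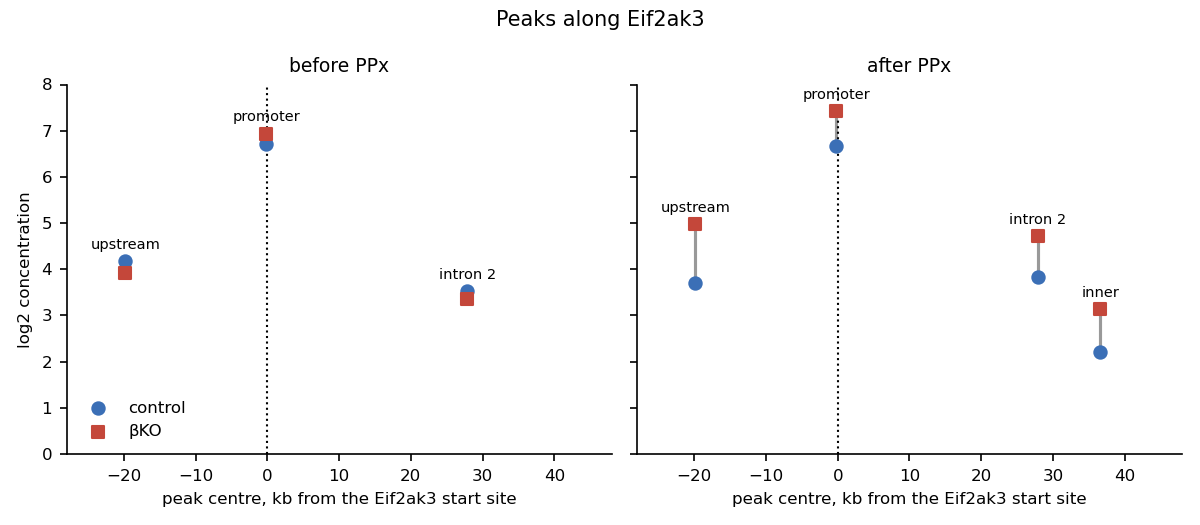
Authors' group values of log2 concentration (y axis) at the Eif2ak3 peaks by distance of the peak centre from the start site in kb (x axis, dotted line at the start), in control (circles) and βKO islets (squares), before (left) and after PPx (right). At the upstream region control is above βKO before PPx (4.17 and 3.92) and below it after (3.70 and 4.98); the inner region 36.6 kb after the start was listed after PPx and not before.

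The last members were weak and far from a start. A Pdia6 region 13.4 kb upstream (chr12:17252913-17253513) read 2.30 in control against 3.13 in βKO islets, under 10 normalised reads in either group, and was called in 0 of 4 and 2 of 4 libraries. A region that the authors' annotation gives to Edem1 lies 715 kb beyond its start (chr6:109542969-109543569), with the start of the predicted gene Gm35467 nearer, at 196.5 kb. It read 3.03 in control against 2.95 in βKO islets, the single member that was not higher in βKO islets after PPx. Both weak regions, and the inner Eif2ak3 region, were listed in the tables that hold βKO islets after PPx and not in the other tables.

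In control islets no member was called over time, as for 0 of 8070 peaks of that table. Hspa5 read 4.75 before and 4.78 after PPx, a change of 0.03 with a 95% interval from -0.60 to 0.66. Pdia6 read 4.32 and 4.72, and Edem1 5.28 and 5.69, so that both stood 0.24 to 0.25 above the median change of 0.16, at p = 0.227 and p = 0.169 in the authors' deposited table. At the Eif2ak3 promoter the values were 6.53 before and 6.70 after.

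The upstream region of Eif2ak3 read lower after PPx in controls and intron 2 higher, and both 95% intervals crossed 0. Upstream, the value moved from 4.05 to 3.69, a change of -0.35 ± 0.35 (SE) in the authors' deposited table. That was lower than the change of all but 5.6% of non-promoter peaks. In intron 2 the values were 3.38 before and 3.89 after, with p = 0.213 in the authors' deposited table.

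In βKO islets, all 9 regions read higher after PPx than before, as did 97.1% of all peaks, and 4 were called, where 7.44% of all peaks opened. This comparison shares its post-PPx βKO libraries with the one that chose the members. Here too the inner Eif2ak3 and upstream Pdia6 regions had peak calls in the post-PPx libraries alone, so nothing is read from their direction. Intron 2 of Eif2ak3 gained most, from 3.20 to 4.72, a change of 1.52 ± 0.46 (SE; authors' deposited table, FDR 0.0353). The upstream region rose from 3.64 to 4.98 (authors' deposited table, FDR 0.0426). Both stood above the median of the table, by 0.69 and 0.52.

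The promoters gained about as much as other promoters in βKO islets. Hspa5 rose from 4.70 to 5.78 and Edem1 from 5.46 to 6.52, with FDR values of 0.0468 and 0.0483 in the authors' deposited table. Pdia6 read 4.57 before and 5.56 after (authors' deposited table, FDR 0.0685). Eif2ak3 read 6.71 before and 7.43 after, a change of 0.72 that lay 0.11 below the median peak and ranked above 32.7% of promoter peaks. Relative to the median promoter the 4 changes were 0.22 at Hspa5, 0.21 at Edem1, 0.13 at Pdia6 and -0.14 at Eif2ak3.

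**Figure D3:**
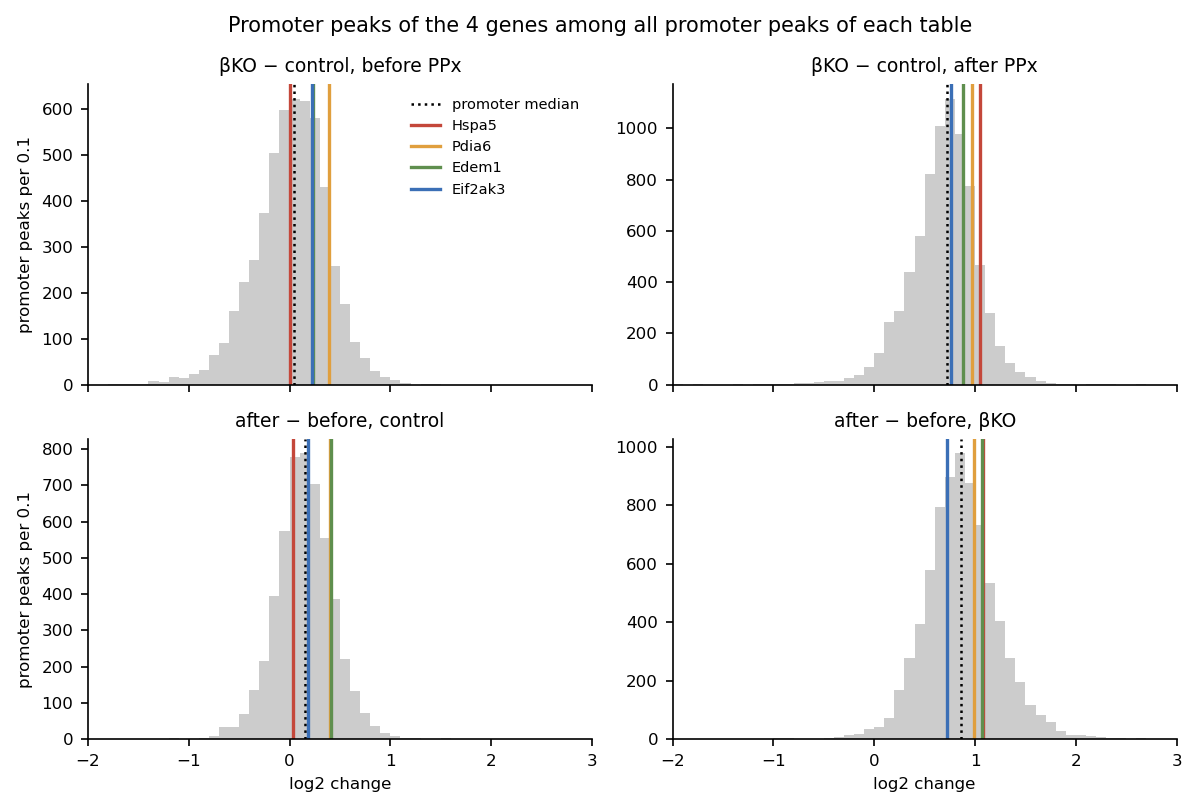
Histograms of the log2 change of all promoter peaks (x axis; y axis, number of peaks per 0.1) in each of the 4 tables, with the median promoter (dotted) and the promoter peaks of the 4 genes (coloured lines; lines that differ by 0.01 cover each other). Every member line lies within the body of its distribution. Hspa5 lies -0.04 from the median promoter between genotypes before PPx and -0.12 in control islets over time. It lies 0.33 and 0.22 above it, between genotypes and over time, in the tables that hold βKO islets after PPx, the group that chose it. Each of these distances is less than 1 SE.

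None of the 30 member values had a 95% interval, from the implied SE, that left out the median change of its table. Among all peaks 4.99% did so between genotypes after PPx, 3.14% between genotypes before, 1.72% over time in βKO islets and 1.2% over time in control islets. The nearest was the Eif2ak3 upstream region after PPx, at 1.88 SE. The SE is that of the deposited change, and the error of a change relative to the median was not derived. By this SE, the rise of the members in βKO islets after PPx was not distinguishable from the rise of the median peak.

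**Figure D4:**
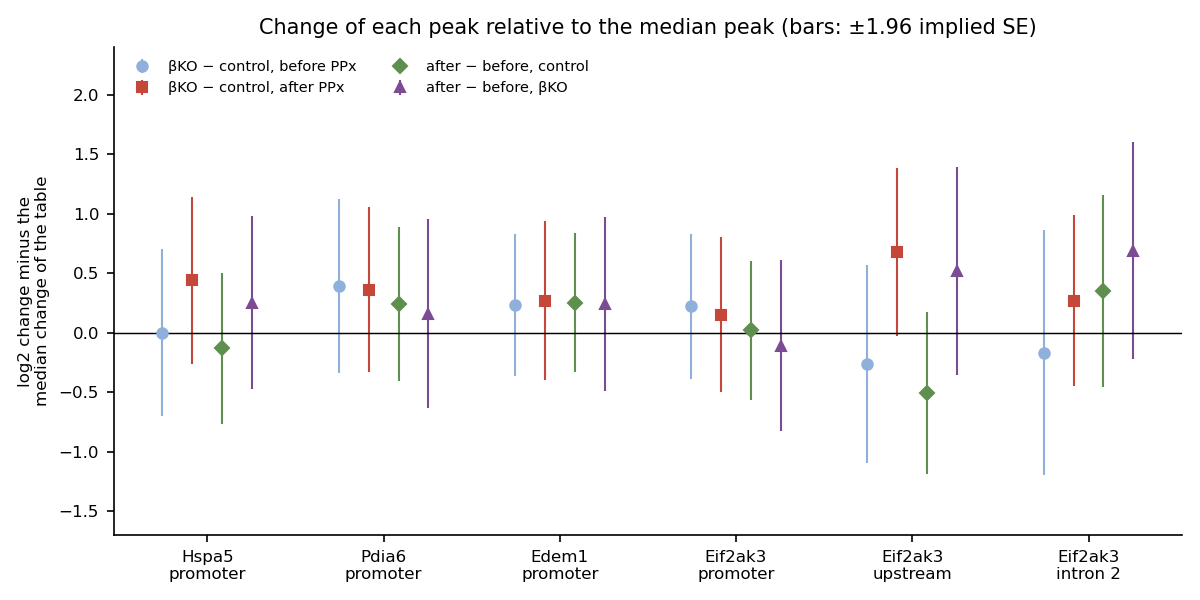
Change of 6 regions minus the median change of the same table, on the log2 scale (y axis), in the 4 comparisons (symbols), with bars of the 95% interval from the implied SE. All bars cross 0; the upstream region of Eif2ak3 spans the widest range, from -0.51 in control islets over time to 0.68 between genotypes after PPx.

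The difference of the genotype effect between the times was taken for the 6 regions listed in all tables, and each 95% interval crossed 0. It was taken as the genotype change after PPx minus that before, each relative to its table's median, and again as the change over time in βKO minus that in control islets; the routes use the same libraries and are not independent. The upstream region of Eif2ak3 gave 0.94 ± 0.56 (SE) by the genotype tables and 1.03 by the time tables. Hspa5 gave 0.44 ± 0.51 and 0.38, and intron 2 of Eif2ak3 gave 0.44 ± 0.64 and 0.34.

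The other 3 promoters stood near 0. Edem1 gave 0.04 ± 0.46 (SE) and -0.01, Pdia6 -0.03 ± 0.51 and -0.08, and Eif2ak3 -0.07 ± 0.45 and -0.13, by the genotype and time tables in turn. Across 4185 promoter peaks listed in all tables, predicted genes left out, the quartiles ran from -0.17 to 0.34 by the genotype tables, so Hspa5 lay above that range and the Pdia6, Edem1 and Eif2ak3 promoters within it. No test is given, since the members were chosen on a part of this difference.

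The promoters whose 4 relative changes were nearest to those of each member were picked by Euclidean distance over the 4 comparisons, which rest on 4 groups of mice. For Eif2ak3 these were Otud1, Chd2 and Wrn, at distances of 0.028 to 0.042, where the median promoter lay at 0.51. For Hspa5 they were Rnf31, Tspan33 and Lgals8, at 0.042 to 0.069. Those of Pdia6 were Gzf1, Ift57 and Wbp1, at 0.073 to 0.079, and those of Edem1 were Asah1, Abhd12 and Zscan22, at 0.033 to 0.062.

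The rest of the response was followed with a list of 65 genes by role, of which 46 had a peak in at least 1 table. After PPx, 9 of 46 measured genes had an opened peak in βKO against control islets and none a closed one. That is 19.6%, beside 13% of all genes in the table; without the members it was 6 of 42, or 14.3%. The 39 promoter peaks of the other genes had a median change of 0.74, beside 0.72 over all promoter peaks. Before PPx and in control islets over time no gene of the list was called (0 of 33 and 0 of 35, beside 0.015% and 0% of all genes), and in βKO islets over time 6 of 43 opened, or 14%, beside 9.57% of all genes. Without the members, which were chosen on these libraries, it was 3 of 39, or 7.69%. At an unadjusted p under 0.05 the list held 1 of 35 peaks before PPx (3.14% of all peaks) and 0 of 37 in control islets over time (2.53%), per the authors' deposited tables. Without the members it held 20 of 42 between genotypes after PPx (33.6% of all peaks) and 28 of 40 over time in βKO islets (39.4%). Of these list peaks, 39 of 42 and 38 of 40 were promoter peaks, and the share over all promoter peaks was not taken.

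Among the other sensors, none was called. Ern1, the IRE1α gene, had no listed peak. Atf6 and Atf6b, which encode the Golgi-cleaved sensor and its relative, changed by 0.44 (an intronic peak) and 0.33 (the promoter) after PPx between genotypes, both below the median, with FDR values of 0.32 and 0.49 in the authors' deposited table. The one list peak past an unadjusted 0.05 before PPx was the Atf6b promoter, with 4.13 in control against 3.18 in βKO islets (authors' deposited table, FDR 1). It then read 3.84 and 4.17 after PPx.

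In translation control, Eif2s1, which encodes the PERK substrate eIF2α, opened after PPx, from 3.70 in control to 4.67 in βKO islets (authors' deposited table, FDR 0.0436). Of the other eIF2α kinases, Eif2ak4 (GCN2) read 4.61 in control against 5.25 in βKO islets, and Eif2ak1 (HRI) 3.26 and 3.55, neither of them called. No transcription factor or ATF4 target of the list opened. Of these, 3 of 6 factors and 3 of 3 targets had a peak after PPx, where 13% of all genes opened. With so few genes measured, nothing is read from the lack of calls. Atf4, the factor translated when eIF2α is phosphorylated, read 3.61 and 4.08, and its target Chac1 3.49 and 3.97, both 0.14 below the median change.

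Hspa5 was the one called gene among 8 measured chaperone genes in both comparisons that hold βKO islets after PPx, where 13% and 9.57% of all genes opened. It was chosen on these libraries, so nothing is read from this count. The median change of the 8 stood 0.175 above the median peak between genotypes after PPx, and 0.195 above it over time in βKO islets. Sil1, an exchange factor for BiP, stood at 2.73 and 3.70 after PPx in control and βKO islets and was not called. In disulfide formation, Ero1l (now Ero1a), an ER oxidase gene, opened beside Pdia6, from 4.71 to 5.72 (authors' deposited table, FDR 0.0413). P4hb, the classic disulfide isomerase gene, stood at 4.00 and 4.45, and Txndc5 2.99 and 3.92. A faint intronic peak of Pdia3 at 1.00 and 0.50 was the lowest of the list relative to the median, at -1.11 ± 0.63 (SE).

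In ER-associated degradation, 3 of 12 measured genes opened after PPx, beside 13% of all genes, and Edem1 was not among them at this threshold. The median change of the 12 stood 0.06 above the median peak. Selenos, which encodes a membrane protein that recruits the VCP ATPase, changed most on the list outside Eif2ak3, from 4.61 in control to 5.79 in βKO islets (authors' deposited table, FDR 0.0248). Edem3, a mannosidase gene related to Edem1, read 5.96 and 6.86, and Sel1l, the adaptor of the HRD1 ubiquitin ligase, 6.06 and 6.93, with FDR values of 0.0368 and 0.0471 in the authors' deposited table. Edem3 and Sel1l also had the highest relative changes of the list outside the members before PPx, at 0.42 and 0.39, without a call. Edem2, another gene of the EDEM family, stood at 3.13 in control against 2.95 in βKO islets, and the HRD1 gene Syvn1 3.38 and 3.28.

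Of the translocation genes, which thread new proteins into the ER, Sec61a1 opened after PPx, from 3.83 in control to 4.91 in βKO islets, and again in βKO islets over time, from 3.64 to 4.91. Its FDR was 0.0387 and 0.0486 in the authors' deposited tables. Sec61g read 5.27 in control against 6.01 in βKO islets, 0.13 above the median. In βKO islets over time the genes that opened outside the members were Sec61a1, Ero1l and Selenos, by 1.27, 1.19 and 1.16 (authors' deposited table). Txndc5, Atf6 and Atf4 were lowest there, 0.36, 0.33 and 0.24 below the median change. In control islets over time, P4hb, Sil1 and Eif2ak4 were lowest and Sec61g, Eif2ak1 and Pdia3 highest, between -0.34 and 0.45 relative to the median, none of them called.

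**Figure D5:**
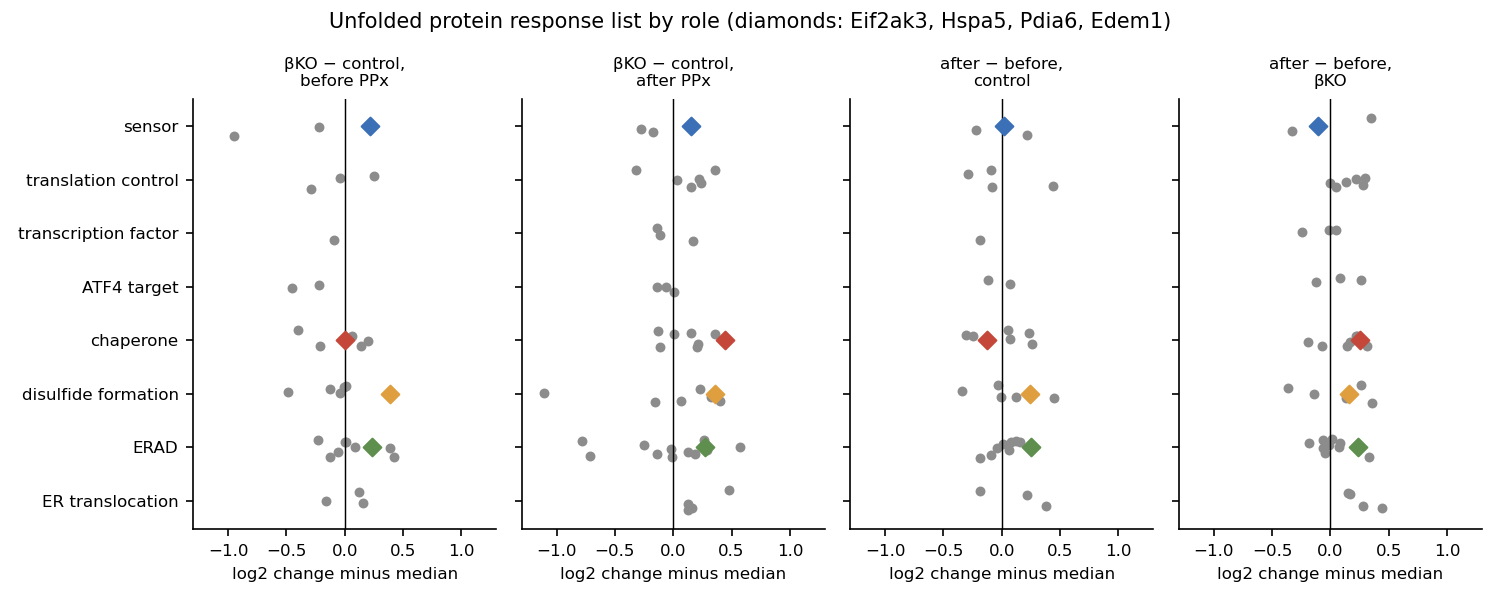
Log2 change minus the median change of the table (x axis) of each list gene at its promoter peak, or its strongest peak where it had no promoter peak, by role (y axis), in the 4 comparisons; diamonds are the 4 members and grey points the other genes. After PPx 29 of 46 genes lie above the median peak between genotypes, and before PPx 14 of 33.

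The ERSE was frequent on the list, whose genes are known targets of ATF6 and XBP1 in part. It was in the RefSeq windows of 10 of 55 matched genes (18.2%), out of 37 genes with it in the mouse windows. Besides Hspa5 and Pdia6, those with a promoter peak after PPx were Canx, Derl3, Dnajc3, Ero1lb (now Ero1b) and Syvn1. Canx, the calnexin gene, stood at 4.23 in control and 4.99 in βKO islets, and Dnajc3, a BiP co-chaperone gene, 4.83 and 5.65. Derl3 of the degradation channel read 4.53 and 5.33, and the islet oxidase gene Ero1lb 5.20 and 5.89. The median change of the 7 promoters was 0.80, and over all listed promoters it was 0.78 with the element (10 promoters) and 0.72 without it. Both sets with the element include Hspa5 and Pdia6, which this contrast chose, so nothing is read from these medians. Outside the members the changes were 0.76 at Canx, 0.80 at Derl3, 0.82 at Dnajc3, 0.68 at Ero1lb and -0.10 at Syvn1.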

How the data were processed

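Chromatin accessibility was measured in islets of 15 mice in 4 groups, from 40000 islet cells per library and 75 bp single-end reads, per the labels' protocols. Tools named in the submitters' processing notes are BWA, cutadapt, MACS, ChIPseeker and DiffBind, with build mm10 (GRCm38). Their versions and settings, and any Tn5 shift, are not given in the sources used. Each of the 4 deposited tables holds log2 concentrations per group and their log2 fold, per the file headers. A p-value, an FDR and the number of libraries with a called peak are also deposited per peak; the FDR is the authors' own and differs from a Benjamini-Hochberg adjustment over the listed peaks. Library depth is unknown, and no library could be left out.

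Repeated positions were counted once, 1 empty row was dropped and the sign of the fold was turned. The SE is the log2 change divided by the normal quantile of the authors' p-value; where p was 0.5 or more, or the change was under 0.1, the median SE of peaks of like concentration (20 bins) was used. Intervals are 95% normal intervals from this SE. The same SE was used for changes relative to a median and within the differences of genotype effects, whose own errors were not derived. The steps were tested on simulated data. Peaks were matched across tables by at least 1 bp.

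The members and lists were chosen with earlier results of these data known. Named list genes are those at FDR under 0.05 in any table and the 3 highest and 3 lowest relative changes per table; Canx, Dnajc3, Derl3 and Ero1lb were added for their ERSE. Python 3.11.15, pandas 2.3.3, numpy 2.4.6 and scipy 1.17.1 were used.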

Additional observations from a re-analysis of the deposited data

How the results depend on the processing

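At an authors' FDR under 0.01, 0 members were opened in either comparison that holds βKO islets after PPx, and 0 genes of the pathway list. At an FDR under 0.1, 6 of 9 members opened after PPx between genotypes, and the pathway list had 22 of 46 genes opened there and 28 of 43 in βKO islets over time. With a Benjamini-Hochberg adjustment over all listed peaks, 1 member opened in each of these comparisons (the Eif2ak3 upstream region between genotypes, its intron 2 over time) and 2 genes of the list in each. The shares of all peaks and of all genes at these other thresholds were not taken, so nothing is read from the counts. Counting promoter peaks alone, or peaks of at least median concentration, kept the list counts within 1.5 times. Centring on the promoter median or on peaks of like concentration moved none of the 30 member values by more than its SE. Without any centring each value shifts by the median of its table. That moved 18 values by more than their SE, all in the tables that hold βKO islets after PPx, and says nothing about the members. The difference of genotype effects moved by less than its SE between routes. Requiring the same peak centre gave no pair between the genotype tables and 1 between the time tables, the Edem1 promoter, at -0.01. Peaks under 10 normalised reads carry the largest errors. No paired analysis was possible because the labels' sample numbers are not shared between groups.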
